A study of Mus musculus with 3 samples.

Results

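The ion, bicarbonate and metal carriers described here are 80 protein-coding genes of 12 solute carrier families, measured in epithelial cells of mouse small intestinal organoids (SIO) after co-culture with type-3 innate lymphoid cells (ILC3). They were taken by symbol from a table of 35824 genes, as every protein-coding gene of the families Slc4, Slc8, Slc9, Slc11, Slc12, Slc20, Slc26, Slc30, Slc34, Slc39, Slc40 and Slc41. Of the 80, 77 are carriers and 3 share only the name of a carrier they bind or were named after: Slc9a3r1 and Slc9a3r2, scaffold proteins that bind the sodium-proton exchanger Slc9a3, and Slc4a1ap, an adaptor of Slc4a1.

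Epithelial cells of the small intestine absorb sodium, chloride, phosphate, iron, zinc and magnesium at the brush border and pass them to the blood across the basolateral membrane, while they secrete chloride and bicarbonate into the lumen. Each solute crosses each membrane on its own carriers, so the entry and exit of an ion are usually the work of different families. Zinc carriers fall into a pair of opposing families, the Slc39 or ZIP proteins that bring zinc into the cytosol and the Slc30 or ZnT proteins that move it out of the cytosol into vesicles or out of the cell.

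The 3 libraries, named A, B and C, all belong to 1 group, IEC + ILC3, and carry the labels of biological replicates 1, 2 and 3. The SIO came from female CD45.1 C57BL/6 mice of 6 to 8 weeks, were grown in Matrigel with ILC3 from the small intestine for 4 days in medium that held IL-2, IL-7 and IL-15, and were sorted by FACS before RNA was extracted and converted by SMART-Seq2, a full-length cDNA method. All libraries share this treatment, and no value below measures an effect of ILC3, because libraries of IEC ONLY are not analysed here. The labels keep A and B in the final analysis and leave C out of it, without a reason that could be found in the study's text. Whether the libraries came from separate cultures is not stated beyond the word biological. The p-values for C rest on the spread between A and B, which may be technical. C stood alone on its side, so its own spread was not measured and was taken to be like theirs.

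Libraries A, B and C held 17946361, 23142849 and 28913885 estimated counts, so that 3 counts, the floor used for a gene at 0, corresponded to 0.164, 0.131 and 0.105 CPM, counts scaled to a fixed total per library. The labelled tissue was borne out by its markers: all 8 epithelial genes, Epcam and Vil1 among them, had at least 10 counts in every library and summed to between 10811 and 12770 CPM. Of the 8 immune genes, Il22, Il17a, Cd3e and Il23r were at 0 counts in every library, and of the 5 stromal and vessel genes Col1a1, Col3a1 and Pdgfra were. In bulk RNA, fewer cells of a type and less RNA per cell cannot be told apart, which holds for every value that follows. Where 3 values are given without letters, they are those of A, B and C in that order.

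Most carriers were measurable. At least 10 counts in every library were found for 47 of the 80 genes, at least 10 counts in some libraries for 15, and fewer than 10 in all for 18. The members that reached 10 counts numbered 57, 55 and 51 in libraries A, B and C, and over all genes 12549, 12964 and 11986 did. The 13 genes with no count in any library were Slc34a1, Slc34a3, Slc26a1, Slc26a4, Slc26a5, Slc26a7, Slc4a1, Slc4a3, Slc4a10, Slc9a9, Slc12a1, Slc39a12 and Slc8a1. Several are known from other organs, such as Slc12a1 and Slc34a1 from the kidney tubule, Slc26a5 from cochlear hair cells and Slc4a1 from red blood cells. A count of 0 leaves room for the floor given above.

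Zinc importers of the Slc39 family were the most abundant family on the scale that allows genes to be compared, CPM per kilobase of the longest coding transcript. Their 14 genes summed to 364, 336 and 318 CPM per kilobase in libraries A, B and C (mean 339 ± 23.5, SD, n = 3), which was 41.2% of the summed level of all members. Slc39 was also the family with the most members. Per member its mean was 24.2 CPM per kilobase, below the 28.3 of Slc40, a family of 1 gene. By sum the Slc9 family came next with 136, 129 and 112 CPM per kilobase, of which the scaffold gene Slc9a3r1 alone made up 74.1%. Its 9 carriers without the scaffolds held 34.2, 34.4 and 27.4 CPM per kilobase (mean 32.0 ± 4.02, SD, n = 3), so the rank of the family rested on a gene that carries no ion.

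The next families lay close together. Slc26 summed to 108, 75.2 and 89.0 CPM per kilobase, Slc30 to 78.2, 71.9 and 82.6, and Slc12 to 72.6, 82.2 and 76.7. The ranges of Slc26 and Slc30 over the libraries overlapped, as did those of Slc30 and Slc12, and the order of these families was therefore not resolved. Slc4 (37.0, 43.9 and 25.8 CPM per kilobase), the lone Slc40 gene (31.5, 26 and 27.4) and Slc20 (23.3, 27.8 and 28.8) also had overlapping ranges from each to the next. Slc11 (16.3, 17.4 and 8.88), Slc41 (7.85, 7.29 and 2.31) and Slc34 (3.15, 1.5 and 0.95) lay below them, and the 3 Slc8 genes summed to 0.06 CPM per kilobase in A and to 0 in B and C.

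**Figure D1:**
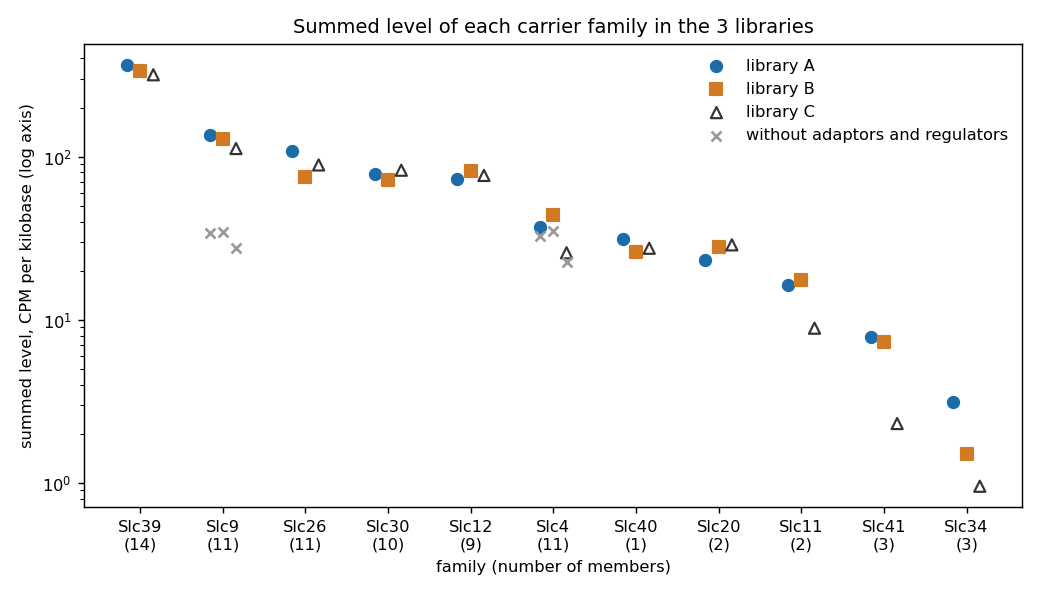
Summed level of each family in libraries A, B and C, in CPM per kilobase of the longest coding transcript on a log axis, with the number of members in brackets and crosses for the sums without the 3 adaptors and regulators; Slc8, at 0 in B and C, is not drawn. Slc39 stands highest in all 3 libraries, and the crosses show that the Slc9 carriers alone lie between 27.4 and 34.4.

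The level was held by few genes. The 5 highest members, Slc9a3r1, Slc39a7, Slc39a5, Slc39a11 and Slc26a3, made up 45.5% of the summed level and the 10 highest 66.2%. Of the 20 members highest on average, 18 were among the 20 highest in every library. The members' levels ranked alike across the libraries, with a Spearman rho over the 80 genes of 0.97 for A and B, 0.95 for A and C and 0.94 for B and C. These correlations run over genes of the same samples and are descriptions.

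**Figure D2:**
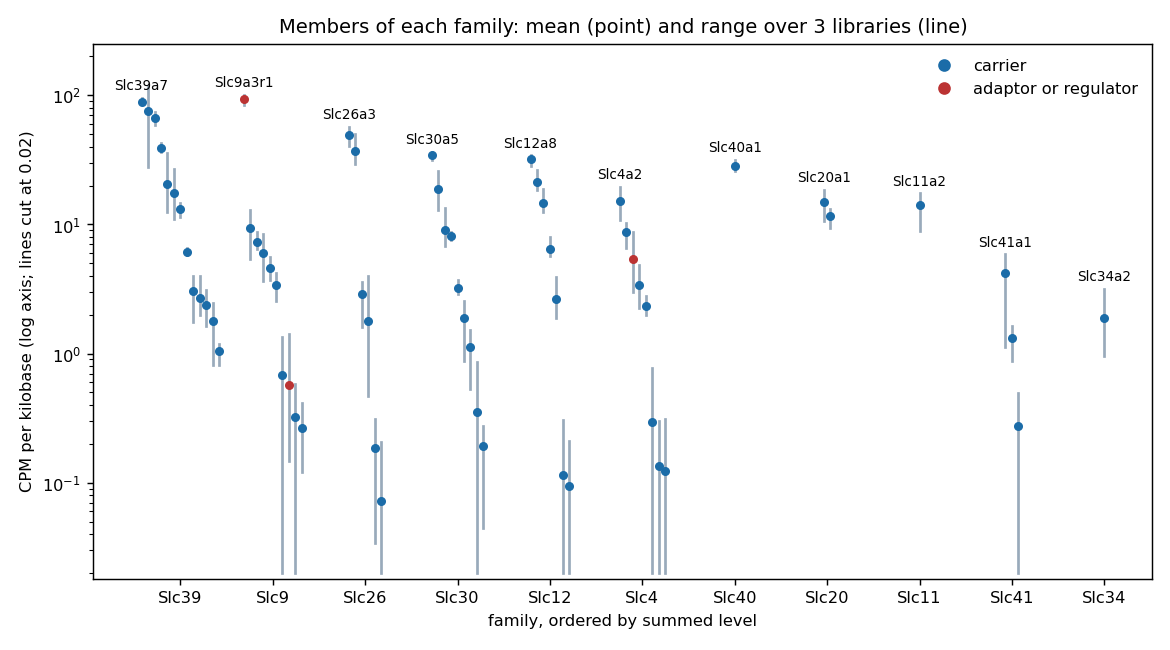
Level of each member with a mean of at least 0.05 CPM per kilobase, grouped by family, as the mean over 3 libraries (point) and their range (line) on a log axis; 61 members are drawn and 19 lie below the limit. Within most families 1 to 4 genes lie far above the rest, and the highest point of Slc9 is the scaffold gene Slc9a3r1.

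The labels set library C apart from A and B, and the members were compared along that line. Of the 80 members, 61 had counts enough for the test, edgeR's quasi-likelihood test with Benjamini-Hochberg adjustment over all 13604 genes tested and a threshold of 0.1. Of these 61, 3 passed, which was 4.92% against 6.56% of all genes tested: Slc39a5 and Slc41a1 were lower in C and Slc39a1 was higher in C. Among all genes 1.36% were higher and 5.20% lower in C. The share of members that passed was near that of all genes. At an unadjusted p under 0.05 there were 15 members, or 24.6%, against 22.3% of all genes. The test set 1 library against a pair, which left 1 residual degree of freedom, and it compares these libraries, not conditions. With A set against the others, or B, edgeR's test called no gene. The residual spread in those fits came from a pair that held C, so they cannot tell whether C alone stood apart.

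By size alone, 15 of the 61 members lay at least 2-fold from the mean of A and B in C on the log2(CPM + 1) scale, 3 above and 12 below, while 20.2% of all tested genes did, 6.78% above and 13.4% below. Between A and B, 8 members were 2-fold apart, 3 higher and 5 lower in B, beside 10.6% of all tested genes, 5.73% higher and 4.91% lower. Library C lay below both A and B for 35 members, above both for 13 and between them for 13, where 41.0% of all tested genes lay below both and 37.6% above both. The members' median difference of C from the mean of A and B was -0.42 on the log2(CPM + 1) scale and that of all tested genes -0.06. With genes of a mean of at least 1 CPM alone, the medians were -0.27 for 51 members and 0.01 for 11859 genes, and C lay below both for 52.9% of the members and 40.1% of the genes. Members tended to be longer than other tested genes, with a median coding transcript of 3962 bases against 2973, and over all tested genes the fold change of C had a Spearman rho of -0.15 with length. In edgeR's fit the median log2 fold change was -0.47 for the members and -0.10 for all genes, with the trend with length removed it was -0.29 and -0.10, and with the trend with GC content removed -0.33 and -0.11. The part of length or GC content in the members' lower median was not tested further.

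**Figure D3:**
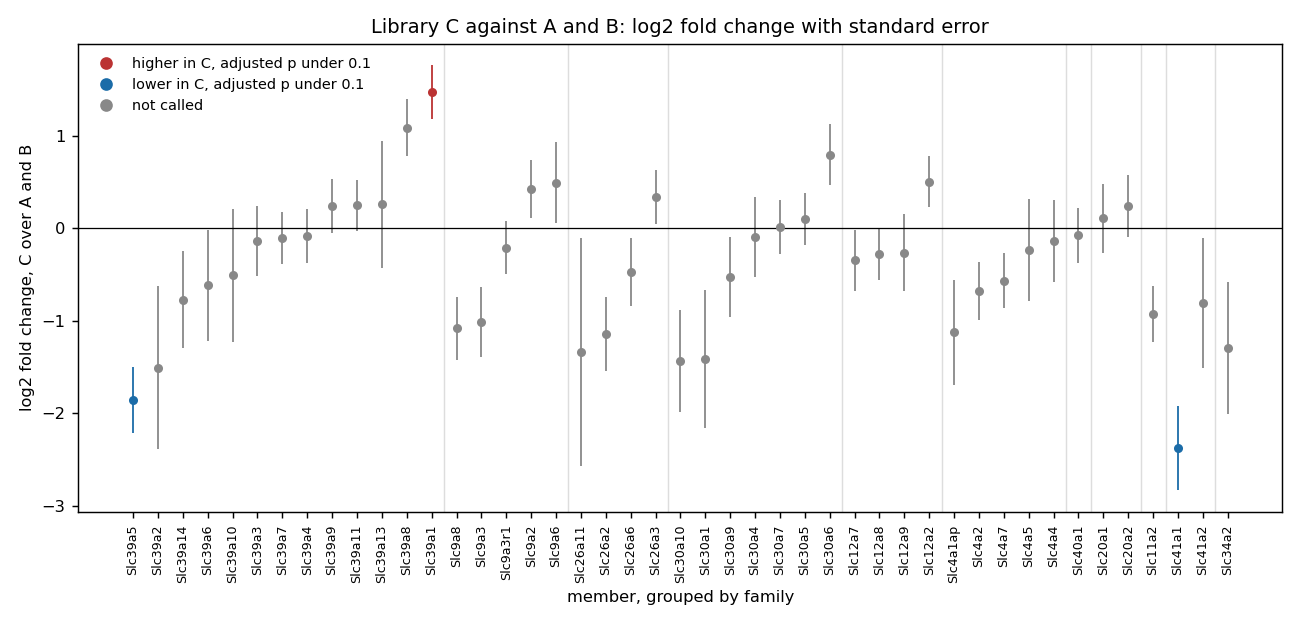
Log2 fold change of library C over A and B from edgeR's quasi-likelihood fit, with its standard error, for 45 tested members whose standard error was under 1.5, grouped by family; the other 16 tested members are left out. Slc39a1 lies above the line at 1.47, Slc39a5 at -1.86 and Slc41a1 at -2.38 below it, and Slc39a8 at 1.09 just misses the threshold.

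Some other epithelial markers also differed in C. Of 4 tuft cell genes, Dclk1, Trpm5 and Pou2f3 were lower in C by the same test, and the list summed to 37.8, 52.3 and 5.28 CPM. Of 7 goblet cell genes, Muc2, Fcgbp, Clca1 and Zg16 were lower in C, and the sums were 2287, 2872 and 1553 CPM. The rest of the goblet list did not follow: Agr2 was highest in C (441, 370 and 586 CPM) and Spdef was nearly level (22.5, 27.4 and 24.7 CPM). Tff3 in C was near its value in A (670, 1131 and 603 CPM). No enterocyte gene of 9 tested, no Paneth gene of 6 and no stem cell gene of 4 passed, and the enterocyte sums were 5029, 3417 and 4628 CPM. The part of these cell types in the differences of the carriers was not tested.

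Slc39a5 (ENSMUSG00000039878), the zinc importer of the basolateral membrane in enterocytes and acinar cells, was the Slc39 gene with the lowest value in C relative to A and B. Its values were 239, 167 and 56.2 CPM. C stood apart from both others, 4.26-fold below A and 2.96-fold below B, while A and B differed by less. The log2 fold change of C over A and B was -1.86 (standard error 0.36, adjusted p = 0.044, edgeR quasi-likelihood test), and the mean of A and B was 3.61 times the value of C. The gene spans chr10:128395931-128401229 on the minus strand of GRCm38.

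Slc39a1 (ENSMUSG00000052310), a zinc importer of the plasma membrane in many cell types, went the other way. It had 31.5, 29.4 and 84.8 CPM, so that A and B nearly coincided and C was 2.79-fold above their mean. The log2 fold change was 1.47 (standard error 0.29, adjusted p = 0.048, edgeR quasi-likelihood test). It lies at chr3:90248172-90253612 on the plus strand, and its processed pseudogene Slc39a1-ps was at 0 counts in all libraries.

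The promoters of the 3 members that passed are shown because the metal response element, the letters TGCACNC or TGCGCNC that the zinc-sensing factor Mtf1 is known to bind, is the best known zinc-responsive motif upstream of zinc genes. Sequences are from RefSeq for GRCm38.p6, 5′ to 3′ on the strand of the gene, within the 250 to 51 bases before the transcript start and without bases that lie in an exon of any gene. Capitals mark a match to the element on either strand. Slc39a5 has chr10:128401275-128401394 (minus strand), Slc39a1 chr3:90247942-90248141 (plus strand) and Slc41a1, a magnesium carrier described below, chr1:131827762-131827961 (plus strand), which lies outside exons but inside the GENCODE extent of the gene, since that annotation starts it further upstream.
Slc39a5: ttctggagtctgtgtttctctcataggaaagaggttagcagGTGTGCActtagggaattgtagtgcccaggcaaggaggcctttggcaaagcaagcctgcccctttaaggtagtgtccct
Slc39a1: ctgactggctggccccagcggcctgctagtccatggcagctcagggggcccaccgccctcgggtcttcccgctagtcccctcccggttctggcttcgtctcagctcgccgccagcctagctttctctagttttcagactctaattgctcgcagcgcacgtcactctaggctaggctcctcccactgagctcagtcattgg
Slc41a1: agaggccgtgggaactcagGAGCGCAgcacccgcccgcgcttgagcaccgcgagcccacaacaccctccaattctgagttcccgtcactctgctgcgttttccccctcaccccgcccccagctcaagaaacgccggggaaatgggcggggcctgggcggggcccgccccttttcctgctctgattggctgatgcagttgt
Slc39a5 and Slc41a1 hold 1 match each and Slc39a1 holds 0. The table has a further promoter of Slc39a5 that is not printed. Over the 76 promoters found for 61 of the members, 16, or 21.1%, held the element in the window, beside 16.9% of the 32851 promoters of all genes. The GC box, GGGCGG on either strand, was found in 43.4% of the members' promoters and in 24.6% of all. Slc41a1 held 5 GC boxes and Slc39a1 held 1. A match of letters is a description of the sequence and no site of binding was measured.

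Among the other zinc importers the highest were nearly level across the libraries. Slc39a7, which releases zinc from the endoplasmic reticulum and Golgi into the cytosol, had 203, 222 and 199 CPM in A, B and C, or 89.6 ± 5.44 CPM per kilobase (SD, n = 3), the highest of all carriers. Slc39a11 had 163, 184 and 207 CPM. Slc39a4, the zinc importer of the enterocyte brush border whose human gene is mutated in acrodermatitis enteropathica, had 118, 100 and 104 CPM. For each of these 3 genes the highest library was less than 1.5-fold above the lowest.

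Slc39a8, an importer of zinc and manganese, had 50.7, 38.9 and 95.8 CPM and missed the threshold (log2 fold change 1.09, standard error 0.31, adjusted p = 0.10, edgeR quasi-likelihood test). C was the highest of the 3 libraries for this gene, as for Slc39a1. Slc39a14, which also carries iron and manganese, had 11.9, 15.3 and 8.01 CPM, and Slc39a13 had 4.32, 9.76 and 8.46 CPM, with A below both others. The remaining importers with counts, Slc39a2, Slc39a3, Slc39a6, Slc39a9 and Slc39a10, had between 1.89 and 80.2 CPM, and none passed the test. In all, 13 of the 14 importers had at least 10 counts in every library, which made Slc39 also the family with the largest number of measurable members.

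**Figure D4:**
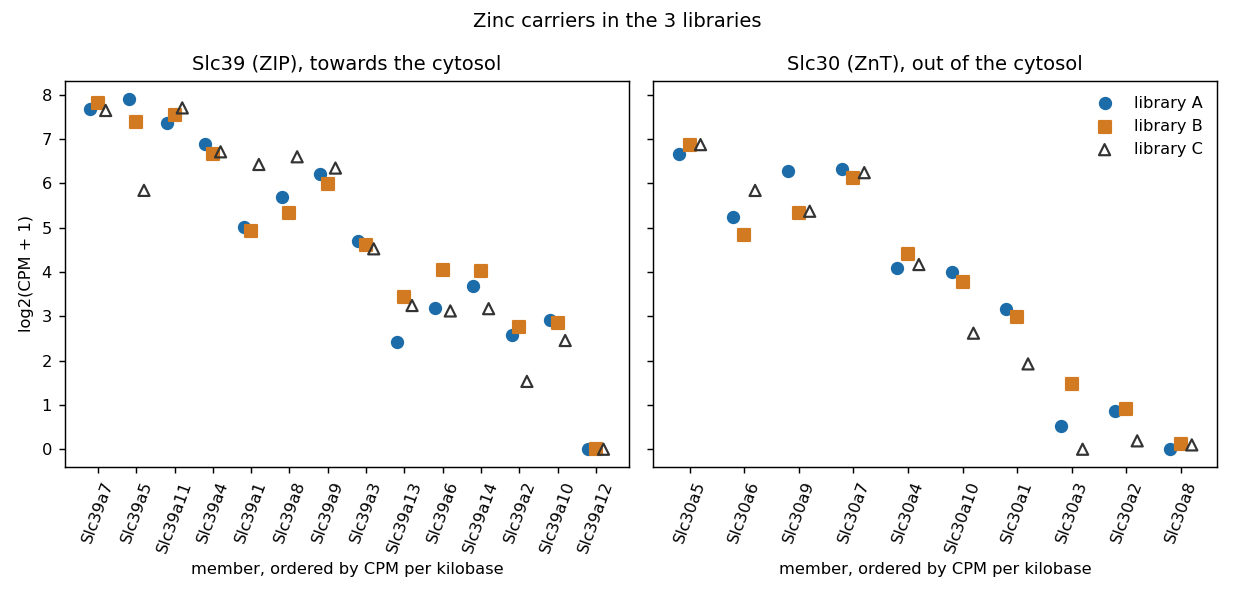
Zinc importers (Slc39, left) and zinc exporters or vesicle loaders (Slc30, right) in libraries A, B and C, as log2(CPM + 1), ordered by mean CPM per kilobase. C falls apart from A and B for Slc39a5 (56.2 CPM, below) and Slc39a1 (84.8 CPM, above), while Slc39a7, Slc39a4, Slc30a5 and Slc30a7 nearly coincide.

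The Slc30 family, which takes zinc out of the cytosol, was led by genes of the secretory pathway. Slc30a5 had 100, 115 and 116 CPM, and its partner Slc30a6, with which it forms a heterodimer that loads zinc into enzymes of the early secretory pathway, had 36.8, 27.6 and 56.2 CPM. C was higher than both others for Slc30a6 without passing the test (log2 fold change 0.80, standard error 0.33, adjusted p = 0.21, edgeR quasi-likelihood test). Slc30a7, of the Golgi, had 78.4, 68.3 and 74.5 CPM, and Slc30a9 had 76.6, 39 and 40.3 CPM with A above both others.

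The exporters of the cell surface were low. Slc30a1, the main zinc exporter of the plasma membrane, had 7.98, 6.89 and 2.80 CPM, and Slc30a10, known as a manganese exporter, had 15.0, 12.6 and 5.14 CPM. C was the lowest library for both, and neither passed the test (adjusted p = 0.295 and 0.185, edgeR quasi-likelihood test). Slc30a2, the vesicle carrier that loads zinc into Paneth cell granules, had 15, 20 and 4 counts, or 0.82, 0.87 and 0.14 CPM, while the 6 Paneth cell markers summed to between 13480 and 19909 CPM. The summed level of zinc importers was 4.66 times that of the Slc30 family in A, 4.68 times in B and 3.85 times in C (mean 4.39 ± 0.475, SD, n = 3), in CPM per kilobase of the longest coding transcript. The size of this ratio depended on the length used. By merged exon length the mean sums of Slc39 and Slc30 were 288 and 45.7 CPM per kilobase. By the median coding transcript they were 664 and 95.7. None of the 9 Slc30 genes tested passed.

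Iron enters the enterocyte through Slc11a2 and leaves it through Slc40a1. Slc11a2, the proton-coupled importer of ferrous iron, had 71.8, 76.8 and 39.2 CPM. C lay below both, and the difference missed the threshold (log2 fold change -0.93, standard error 0.30, adjusted p = 0.14, edgeR quasi-likelihood test). Slc40a1, ferroportin, the iron exporter of the basolateral membrane, had 106, 87.7 and 92.5 CPM, with C between the others. Slc11a1, the importer of phagosomes in macrophages, had 2, 1 and 0 counts. Per kilobase of the longest coding transcript the exporter stood above the importer in each library. Slc11a2 was at 0.516 of Slc40a1 in A, 0.669 in B and 0.324 in C. The gap depended on the length used. By merged exon length the mean sums of the Slc11 and Slc40 families were nearly level, at 9.87 and 10.6 CPM per kilobase. By the median coding transcript they were 87.8 and 222. The order within each library by those lengths is not given here.

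Chloride and bicarbonate exchange across the brush border was represented by Slc26a3 and Slc26a6. Slc26a3, the exchanger whose loss causes congenital chloride diarrhoea, had 144, 117 and 166 CPM in A, B and C. Slc26a6, which also carries oxalate, had 221, 133 and 128 CPM, with A well above B and C. Neither passed the test in C (adjusted p = 0.52 and 0.46, edgeR quasi-likelihood test). Per kilobase the ratio of Slc26a6 to Slc26a3 was 1.02, 0.760 and 0.514, so that they were level in A and Slc26a3 was ahead in C.

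The other Slc26 genes were low or at 0. Slc26a2, a sulfate carrier, had 26.6, 28.2 and 12.5 CPM with C lowest. Slc26a11 had the largest difference between A and B of all members with at least 10 counts in both, with 196, 29 and 68 counts, or 10.7, 1.26 and 2.38 CPM, and a difference of B from A of -2.37 on the log2(CPM + 1) scale. A was the highest library for Slc26a11. Slc26a10 had 12, 22 and 3 counts, and 17.8% of its exon bases overlap B4galnt1 on the opposite strand.

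On the basolateral side, Slc4a2, the chloride-bicarbonate exchanger of most epithelia, had 64.8, 83.6 and 46.5 CPM, and 13.7% of its exon bases overlap Fastk on the opposite strand. Slc4a7 and Slc4a4, which bring in sodium together with bicarbonate, had 75.4, 82.9 and 53.7 CPM and 22.3, 15.7 and 17.4 CPM. C was lowest for Slc4a2 and Slc4a7 and lay between the others for Slc4a4, and none of the 8 Slc4 genes tested passed. Slc4a5, another sodium-bicarbonate cotransporter, had 25, 11.5 and 15.6 CPM with A highest.

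Several Slc4 genes near the detection limit had no count in C. Slc4a8, a sodium-driven chloride-bicarbonate exchanger, had 23, 81 and 0 counts, or 1.26, 3.53 and 0 CPM, which put C at least 22.8-fold lower than the mean of A and B by the floor of 3 counts per library. Its adjusted p was 0.11 by edgeR's quasi-likelihood test. Slc4a11 had 6, 57 and 0 counts and Slc4a9 had 18, 4 and 0. In other families, Slc9a5 (25, 47 and 0 counts), Slc30a3 (8, 41 and 0), Slc12a3 (3, 30 and 0), Slc12a5 (8, 29 and 0) and Slc26a9 (18, 1 and 0) likewise were at 0 in C, and none of these 8 genes passed the test. They were 13.1% of the 61 members tested, where 8.03% of all genes tested were at 0 in C.

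Sodium-proton exchangers of the Slc9 family raise the pH of the cell and, at the brush border, absorb sodium. Slc9a3, the main sodium absorber of the brush border, had 42.8, 31.6 and 18.5 CPM. Slc9a2, also of the apical membrane, had 32.8, 32.4 and 44.0 CPM. The order of the libraries differed for this pair, with C lowest for Slc9a3 and highest for Slc9a2, and neither passed the test (adjusted p = 0.18 and 0.44, edgeR quasi-likelihood test). Per kilobase Slc9a3 stood at 1.28, 0.957 and 0.413 of Slc9a2.

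Slc9a8, an exchanger of the brush border and of vesicles, was the highest Slc9 carrier per kilobase and had 44.8, 58.4 and 24.5 CPM. C was the lowest library and the difference missed the threshold (log2 fold change -1.08, standard error 0.34, adjusted p = 0.13, edgeR quasi-likelihood test). The scaffold gene Slc9a3r1 had 194, 182 and 163 CPM, or 93.2 ± 8.05 CPM per kilobase (SD, n = 3), the highest of the 80 members and close to Slc39a7. Slc9a3r2 had 55, 8 and 9 counts, so that A alone was above 10. Slc9a4, known from gastric parietal cells, had 52, 1 and 151 counts and was thus uneven across all libraries.

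Cation-chloride cotransporters of the Slc12 family load and unload chloride. Slc12a2, which brings sodium, potassium and chloride in from the blood side and feeds chloride secretion, had 121, 121 and 172 CPM. C was higher than A and B, which nearly coincided, and the difference missed the threshold (log2 fold change 0.51, standard error 0.27, adjusted p = 0.31, edgeR quasi-likelihood test). Slc12a7, a potassium-chloride cotransporter that moves both ions out, had 65.7, 96.1 and 63.9 CPM, with B highest. Slc12a8 was the highest member of the family per kilobase and had 106, 109 and 89.1 CPM.

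Phosphate carriers were led by the Slc20 pair, which are known as the sodium-phosphate importers of nearly all cells. Slc20a1 had 35.2, 61.3 and 52.1 CPM and Slc20a2 45.4, 33.2 and 46.7 CPM. Slc20a1 was highest in B and Slc20a2 lowest in B, so per kilobase the ratio of Slc20a1 to Slc20a2 was 0.834, 1.98 and 1.2. Slc34a2, the sodium-phosphate carrier of the intestinal brush border, had 13.2, 6.28 and 3.99 CPM with A highest, a difference of B from A of -0.96 on the log2(CPM + 1) scale. It was the only gene of its family with a count, since the kidney carriers Slc34a1 and Slc34a3 were at 0.

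Magnesium carriers of the Slc41 family had the largest difference between libraries of the families with a level above 5 CPM per kilobase. Slc41a1 (ENSMUSG00000013275), a magnesium carrier described as a sodium-magnesium exchanger, had 26.9, 27.5 and 5.24 CPM. A and B nearly coincided and C was 5.19-fold below their mean. The log2 fold change of C was -2.38 (standard error 0.46, adjusted p = 0.044, edgeR quasi-likelihood test), the lowest of the 3 members that passed. The gene lies at chr1:131827493-131848865 on the plus strand of GRCm38. Slc41a2 had 7.71, 6.80 and 4.16 CPM, and Slc41a3 had 22, 0 and 22 counts.

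The sodium-calcium exchangers of the Slc8 family, which extrude calcium in heart and nerve, were at or below the floor. Slc8a2 and Slc8a3 had 3 counts each in A and 0 in B and C, and Slc8a1, the cardiac gene, had none in any library. Their plasma membrane alternative, the calcium pump gene Atp2b1, had 188, 143 and 137 CPM.

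Pairs of carriers that act in 1 step or at opposite membranes were set against each other within each library, on CPM per kilobase, after their counts had been seen. The ratio of the basolateral zinc importer Slc39a5 to the brush border importer Slc39a4 was 2.76 in A, 2.25 in B and 0.737 in C, and Slc39a4 was nearly level in the 3 libraries while Slc39a5 was lower in C. The ratio of Slc12a7 to Slc12a2 was 0.691, 1.00 and 0.470. No test was made of these ratios, and which gene of a pair stands on top follows no rule.

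**Figure D5:**
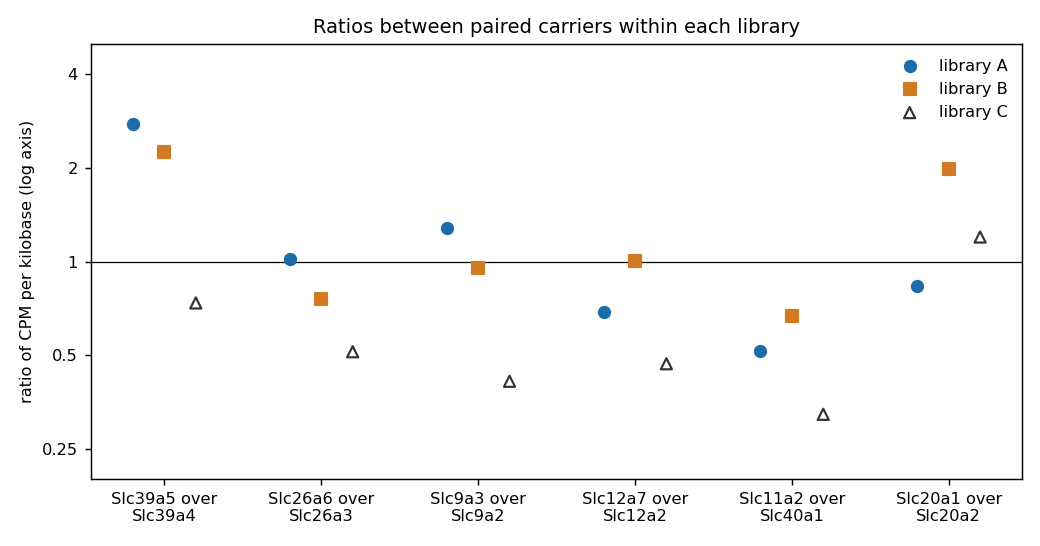
Ratio of CPM per kilobase of the longest coding transcript between 6 pairs of carriers in libraries A, B and C. The axis is logarithmic, with a line where the pair is level. Slc39a5 over Slc39a4 is 2.76 and 2.25 in A and B and 0.737 in C, and Slc11a2 stays below Slc40a1 in all 3 libraries.

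Genes that work beside these carriers were read from 4 lists. In the list of anion secretion and bicarbonate, 3 of 12 genes tested passed: the calcium-activated chloride channel gene Ano1 (27.7, 16.4 and 71.1 CPM) and the carbonic anhydrase gene Car2 (18.3, 15.3 and 45.3 CPM) were higher in C, and the secreted goblet cell protein gene Clca1 (130, 139 and 22 CPM) was lower. Cftr, the chloride and bicarbonate channel, had 39.6, 41.1 and 38.1 CPM and nearly coincided in the 3 libraries. The highest genes of the list by CPM were Gucy2c, the guanylin receptor gene, with 232, 260 and 294 CPM, then Slc9a3r1 and the potassium channel gene Kcnq1 with 152, 236 and 118 CPM. Best2, Car1 and Car4 were at 0 counts in all libraries.

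Of the sodium pump and proton pumps, 0 of 6 genes tested passed edgeR's test. Of the sodium pump, which drives most of these carriers, the beta subunit genes Atp1b1 and Atp1b3 had 391, 320 and 384 CPM and 131, 106 and 182 CPM. In the list of zinc, iron and copper handling 0 of 13 genes tested passed. The ferritin genes Fth1 (3752, 3579 and 4163 CPM) and Ftl1 (2738, 3005 and 5682 CPM) were highest, followed by the metallothionein gene Mt1, a zinc-responsive gene, with 1267, 1796 and 791 CPM. C was the lowest library for Mt1, which did not pass the test.

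In the list of calcium, magnesium and phosphate 2 of 10 genes tested passed. Cnnm4, a basolateral magnesium exporter gene, had 50.8, 62.5 and 153 CPM and was higher in C (log2 fold change 1.43, standard error 0.28, adjusted p = 0.049, edgeR quasi-likelihood test). Trpm7, a magnesium-permeable channel and kinase gene, had 49.2, 74.1 and 17.1 CPM and was lower in C (log2 fold change -1.86, standard error 0.38, adjusted p = 0.053, edgeR quasi-likelihood test). The list was led by the alkaline phosphatase gene Alpi (1477, 1008 and 1401 CPM), then the vitamin D receptor gene Vdr and Atp2b1, while the calcium channel genes Trpv5 and Trpv6 were at 0 counts.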

How the data were processed

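RNA-seq was made from sorted IEC of 3 IEC + ILC3 libraries. Trimmomatic for trimming, Salmon for quantification against Ensembl release 98 (GRCm38.p6) and tximport for sums per gene were the tools of the authors; the submitters' processing notes give Trimmomatic 0.39 and Salmon 0.14.1. The deposited values are estimated counts per gene, already whole numbers. Symbols, coordinates and lengths came from GENCODE M21 of GRCm38, which named 35506 of the 35824 genes, and the other 318 held at most 0.0454% of a library's counts. Values were assigned to genes by the authors' quantification, and genes that share exons may share reads: the transcript gene Gm20427 covers 80.7% of the exon bases of Slc39a7 on the same strand and has no row in the table. Use of strand in counting is not stated.

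CPM were scaled by TMM (edgeR 4.0.16, R 4.3.3) over totals of 17946361 to 28913885 counts. Levels were compared between genes per kilobase of the longest coding transcript, and differences were taken on log2(CPM + 1). For C against the other libraries, filterByExpr kept 13604 genes, and edgeR's quasi-likelihood test was run at a Benjamini-Hochberg adjusted p of 0.1, the study's threshold, after a check on simulated data. Standard errors are the absolute log2 fold change over the root of F. The floor of 3 counts covers counting error alone, because PCR reads were counted without molecular identifiers. The chi-square per gene was 74.0 for A and B, 164 for A and C and 265 for B and C, so no library was a copy of another.

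The members and lists were chosen with earlier results of these data known. Named were the 3 highest members of each family, members that passed, the 5 with the largest difference between A and B, a list known from intestinal physiology, members at 0, and the 3 highest and any that passed of each partner list; other genes were named after their values were seen. A few genes covered by this choice are not reported here. Alternatives were other scalings, filters, thresholds, pseudocounts, lengths, DESeq2 1.42.0 and leaving out each library. Tables and plots were made with pandas 2.3.3, numpy 2.4.6, matplotlib 3.10.9 and scipy 1.17.1 in Python 3.11.15.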

Additional observations from a re-analysis of the deposited data

How the results depend on the processing

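Slc39a5, Slc41a1 and Slc39a1 kept their direction and passed under all 8 alternatives of the test: a threshold of 0.05, DESeq2 size factors, plain totals, no filter, at least 10 counts in every library, the Wald test of DESeq2, and removal of the trend with length or with GC content, both chosen after seeing the data. With either trend removed, all of them lay above 0.05 in adjusted p by edgeR's test. Slc39a5 with the GC trend removed came closest to the threshold of 0.1. The number of members that passed stayed at 3 with either trend removed, under DESeq2 size factors and at 0.05, and was 5 with plain totals, 9 with no filter, 6 with at least 10 counts in every library and 7 with DESeq2's Wald test. The share of members that passed, beside that of all genes, was 4.92% and 2.03% at 0.05, 8.20% and 9.16% with plain totals, 13.4% and 13.8% with no filter, 12.8% and 9.17% with the filter of 10 counts, 11.5% and 13.1% with DESeq2's Wald test, and 4.92% beside 4.09% and 3.94% with the trends with length and GC removed, so it lay below that of all genes in some settings and above it in others. Members gained were drawn from Slc39a8, Slc4a8, Slc11a2, Slc4a11, Slc9a5 and Slc9a8; the cause was not tested. Over all genes the count went from 892 to 276 at 0.05, 840 with DESeq2 size factors, 1246 with plain totals, 2402 with no filter, 1030 with the filter of 10 counts, 1740 with DESeq2's Wald test, and 555 and 534 with the trends with length and GC removed.

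The 15 members 2-fold apart in C were 21 with a pseudocount of 0.5, 4 with a pseudocount of 5, and 13 to 18 when A or B was left out. The 8 members 2-fold apart between A and B were 13 with a pseudocount of 0.5 and 1 with a pseudocount of 5. The share of the Slc39 family was 46.6% by merged exon length, 33.3% with no length correction and 46.9% without adaptors and regulators, and 41.1% to 41.3% when a library was left out. Slc39 led under every length and scaling tried, while Slc40 came second by the median coding transcript, Slc12 with no length correction and Slc26 without adaptors. Of the family sums recomputed, 78 moved by less than 1 SD over libraries and 18 by more.

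Leaving out A or B left no residual degree of freedom, so no test was made, and without C there was no comparison. No paired analysis was possible because there was 1 group. Depth limits genes under about 10 counts.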
